A study of Mus musculus with 15 samples.

Results

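The genes described here encode the proteins of the mitochondrial ribosome, chosen as every protein-coding mouse gene whose RefSeq symbol is Mrpl or Mrps followed by a number. There were 78 such genes among the 20145 named genes on the array, and 6 symbols of pseudogenes were left out. Of the 78, 51 encode proteins of the large subunit and 26 proteins of the small subunit. The remaining gene, Mrps36, carries a ribosomal symbol but was later assigned to the alpha-ketoglutarate dehydrogenase complex. Of the 78 genes, 77 passed the filter on dim probes and were tested among 13391 genes. The single probe of Mrpl21 stayed at background on every array, and this gene was not tested.

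Messenger RNA was measured in liver macrophages of male mice with one-colour arrays, in 3 groups of 5 arrays. The wildtype group held CD11c-negative macrophages from the normal livers of wildtype mice on standard diet, for which the labels state no age. The other groups held CD11c-negative and CD11c-positive macrophages from MC4R-KO mice, which lack the melanocortin 4 receptor, an appetite-regulating receptor whose loss leads to obesity. These mice received Western diet for 20 weeks from 8 weeks of age and had nonalcoholic steatohepatitis (NASH), a fatty, inflamed state of the liver. All cells were sorted for high F4/80, a macrophage surface protein, and each RNA sample was pooled from 7 to 9 mice. Genotype, diet and disease differed together between the wildtype and the NASH groups and cannot be told apart. No label says whether the 5 samples of a group came from separate pools of mice, so the p-values measure only how far these samples scatter, which could be technical scatter. In such bulk samples, fewer cells of a type and less RNA per cell cannot be told apart.

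Mitochondria keep a small genome that encodes core subunits of the respiratory chain and of ATP synthase, and they translate its messages on ribosomes of their own. All proteins of these ribosomes are encoded in the nucleus, made in the cytosol and imported, and they are assembled around ribosomal RNAs transcribed from the mitochondrial DNA. Some have bacterial counterparts, while others arose in the mitochondrial lineage and cover much of the outer surface of the particle. The small subunit decodes the message, and the large subunit joins amino acids and releases the chain at the inner membrane.

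The promoters of 69 of the 78 genes were found in the RefSeq table (build GRCm38.p6), which gives 250 bases before and 50 after each start. Windows of 70 bases before to 30 after the start are shown for members that the results below turn on. Mrpl30 (chr1:37890407-37890506, plus strand) and Mrpl52 (chr14:54426839-54426938, plus strand) had the largest rises, and Mrpl3 (chr9:105053198-105053297, plus strand) was the member that fell. Mrpl9 (chr3:94443266-94443365, plus strand) rose most and Mrps21 (chr3:95871485-95871584, minus strand) was among those that fell most between the NASH groups. Mrps11 (chr7:78783061-78783160, plus strand) shares its start region with another member. Capitals mark matches to the motifs named after the sequences.
Mrpl30: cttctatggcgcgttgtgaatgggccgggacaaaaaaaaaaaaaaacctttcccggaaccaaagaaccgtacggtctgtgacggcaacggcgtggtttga
Mrpl52: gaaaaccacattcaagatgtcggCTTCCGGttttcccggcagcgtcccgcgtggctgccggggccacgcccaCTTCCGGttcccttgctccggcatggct
Mrpl3: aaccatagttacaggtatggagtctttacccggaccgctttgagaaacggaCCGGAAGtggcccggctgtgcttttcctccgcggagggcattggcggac
Mrpl9: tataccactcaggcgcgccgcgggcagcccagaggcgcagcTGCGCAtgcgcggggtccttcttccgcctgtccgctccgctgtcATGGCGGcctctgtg
Mrps21: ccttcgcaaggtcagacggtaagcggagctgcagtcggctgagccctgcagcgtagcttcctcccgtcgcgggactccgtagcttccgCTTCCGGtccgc
Mrps11: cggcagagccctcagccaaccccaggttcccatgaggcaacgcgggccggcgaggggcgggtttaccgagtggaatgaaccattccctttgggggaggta

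Searches on both strands used 4 motifs of factors known to act on genes of mitochondrial proteins, and no motif contains another. The ETS motif (CCGGAAG, read as CTTCCGG on the other strand), which GABP binds, was in 26 of 69 member promoters, or 37.7%. It was in 18.5% of the promoters of all tested genes and in 9.93% of all promoters in the table. The core of the NRF1 site (TGCGCA, the same on both strands) was in 30.4% of member promoters against 14.7% for tested genes and 8.79% for all promoters. The YY1 motif (ATGGCGG) was in 18.8%, against 8.77% and 4.69%. The E-box (CACGTG), which MYC and related factors bind, was in 7.25%, against 11.1% and 8.09%. Thus 3 of the 4 motifs were more frequent in member promoters than in both comparison sets, and 21 members held none. Mrpl52 held 2 ETS matches in the window shown, Mrpl3 and Mrps21 held 1 each, and Mrpl9 held an NRF1 core and a YY1 match. Median GC content of the promoters was 58.0% for members, 59.7% for tested genes and 52.8% for all promoters. In CD11c-negative NASH against wildtype cells, the median log2 change was 0.452 for 25 tested members with an ETS match and 0.404 for 43 without. For the NRF1 core the medians were 0.448 with and 0.446 without, and for YY1 0.390 and 0.452.

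Many of these genes start next to another gene. For 26 of the 69 members (37.7%) another gene started within 1000 bases on the opposite strand, running the other way. The share was 17.8% of tested genes and 12.3% of all genes in the table. Mrpl46 and Mrps11 are both members and start 42 bases apart on chromosome 7, so the Mrps11 sequence above is also the start region of Mrpl46.

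Macrophage transcripts were present in all 3 groups. Mean normalized log2 signals in the wildtype, CD11c-negative and CD11c-positive groups were 9.29, 9.34 and 8.97 for Csf1r, the receptor of a macrophage growth factor. They were 7.34, 7.74 and 7.31 for Adgre1, which encodes F4/80, and 9.30, 8.08 and 7.29 for Clec4f, a Kupffer cell lectin. Itgax, which encodes CD11c, had means of 4.21, 5.93 and 7.29, highest in the cells sorted as positive. The probes of Cd68 did not pass the filter. Signal at the 75th percentile, by which each array was scaled, differed between the groups. It was 399.3 to 444.6 on the wildtype, 358.6 to 403.6 on the CD11c-negative and 477.6 to 562.4 on the CD11c-positive NASH arrays. From 45.8% to 58.0% of spots were well above background, and the 77 tested members were well above background on all 15 arrays. Their median replicate SD was 0.0665, 0.075 and 0.0539 in the 3 groups, against 0.0751, 0.0888 and 0.07 for all genes. Arrays of a group differed from each other by a median of 0.047 to 0.159 per gene, and no pair held identical values.

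The transcripts of the mitochondrial ribosome were higher in both NASH groups than in wildtype macrophages. Each value below is a normalized log2 signal, that is, log2 of the processed signal after subtraction of its array's 75th percentile. The median over the 77 members on the wildtype arrays was 3.17, 3.11, 3.15, 3.26 and 3.24. On the CD11c-negative NASH arrays it was 3.58, 3.56, 3.53, 3.66 and 3.64, and on the CD11c-positive NASH arrays 3.52, 3.54, 3.64, 3.60 and 3.59. Every NASH array lay above every wildtype array, while the arrays of both NASH groups overlapped. The arrays lay on 2 slides that each held all 3 groups, and within each group the arrays on slide 2 had higher member medians than those on slide 1. The median of all genes moved too, so the member median was also taken relative to it. This difference was 2.14 to 2.24 on the wildtype arrays, 2.50 to 2.54 on the CD11c-negative and 2.40 to 2.48 on the CD11c-positive NASH arrays, and the 3 ranges did not overlap. The order of the NASH groups depends on the processing. From CD11c-negative to CD11c-positive cells, the median member change relative to all genes was -0.058. It was -0.003 with normexp background correction and 0.029 without a filter on dim probes.

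**Figure D1:**
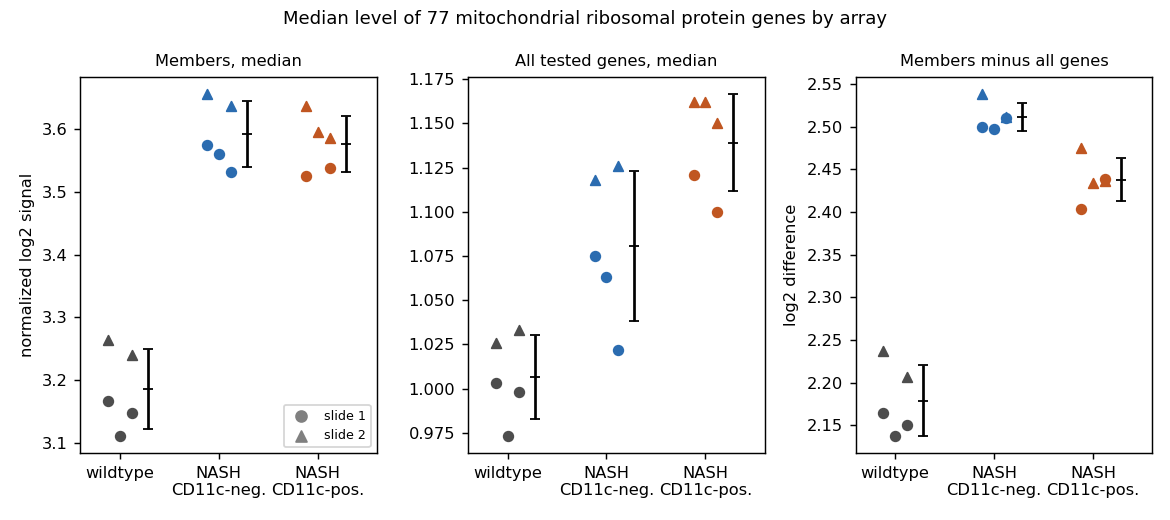
Median normalized log2 signal per array of the 77 tested members (left) and of all tested genes (middle), and the log2 difference between them (right), in the 3 groups of 5 arrays. Points are arrays, circles slide 1 and triangles slide 2, and bars give the mean and SD. The member medians lie at 3.11 to 3.26 in wildtype cells and at 3.52 to 3.66 in both NASH groups.

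In CD11c-negative NASH against wildtype macrophages, a comparison of cells of the same CD11c status, 75 of 77 members rose and 1 fell. In all, 76.8% of the 13391 genes passed the test (adjusted p under 0.05, limma with Benjamini-Hochberg adjustment): 48.3% of all genes were higher and 28.5% lower, so most genes of these arrays moved. Of the members, 97.4% were higher. The median member change was 0.45 on the log2 scale, against 0.13 for all genes, and the changes ran from -0.30 to 0.71. Of the 77 members, 9 rose by at least 1.5-fold, beside 1875 of the 13391 genes. For 73 members, or 94.8%, every array of 1 group lay outside the range of the other, as was so for 64.1% of all genes.

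The scaling of the arrays bears on these counts. With quantile normalization in place of the 75th percentile, which moved the median change of all genes by -0.14 here and by -0.13 in CD11c-positive NASH against wildtype cells, 56 members were higher, 3 lower and the median was 0.20. The share of called genes that were higher went from 62.9% to 48.4%. The members called lower were then Mrpl3, Mrpl51 and Mrps34. Relative to the median of all genes, the members were higher by 0.31 under the percentile and by 0.20 under quantile normalization. Within slide 1 and within slide 2, and with slide as a block, 75 members were higher and 1 lower.

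**Figure D2:**
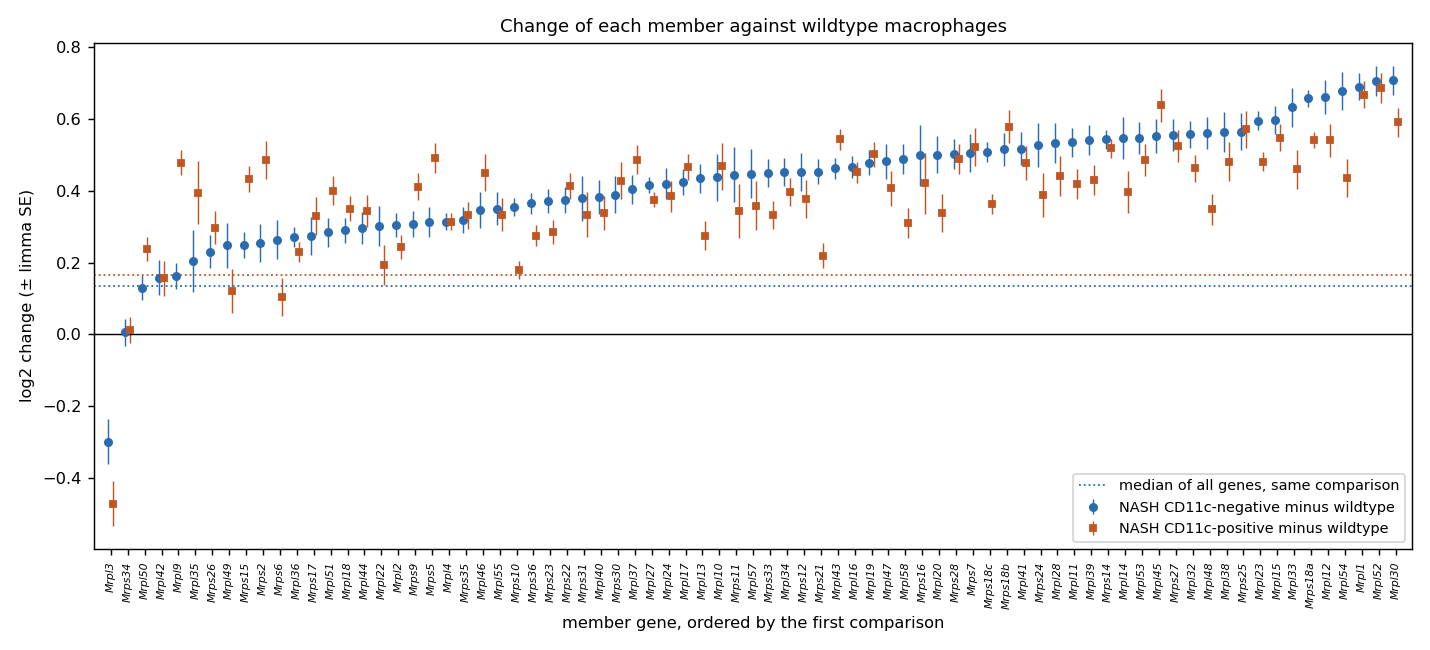
Log2 change of each of the 77 tested members against wildtype macrophages, with its limma standard error, in CD11c-negative (circles) and CD11c-positive (squares) NASH macrophages. Dotted lines give the median change of all 13391 genes in each comparison. Mrpl3 lies below 0 in both, Mrps34 near 0, and the other 75 lie above 0. With quantile normalization 9 and 12 members lie below 0.

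Among proteins of the large subunit with a bacterial counterpart, Mrpl30 rose most. Its signal was 3.65, 3.56, 3.60, 3.65 and 3.70 on the wildtype arrays, 4.31, 4.31, 4.25, 4.39 and 4.43 on the CD11c-negative and 4.16, 4.14, 4.29, 4.24 and 4.27 on the CD11c-positive NASH arrays. Every NASH array was above every wildtype array, and the NASH groups overlapped. The change in CD11c-negative cells was 0.71 (SE 0.0412, adjusted p = 8.28e-10), or 1.63-fold. Mrpl1, the protein of the mobile stalk beside the exit site for transfer RNA, read -0.44, -0.43, -0.39, -0.39 and -0.28 on the wildtype, 0.32, 0.27, 0.25, 0.31 and 0.37 on the CD11c-negative and 0.30, 0.31, 0.32, 0.29 and 0.19 on the CD11c-positive arrays. Its rise was 0.69 (SE 0.0368, adjusted p = 3.03e-10). The probe of Mrpl1 was among the 2 dimmest of the members, with that of Mrpl35.

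Mitochondria-specific proteins of the large subunit rose as well, all 21 of them. Mrpl52 read 5.02, 5.02, 5.09, 5.17 and 5.14 on the wildtype arrays, 5.77, 5.74, 5.71, 5.87 and 5.87 on the CD11c-negative and 5.73, 5.71, 5.83, 5.81 and 5.79 on the CD11c-positive NASH arrays. It rose by 0.71 (SE 0.0415, adjusted p = 9.35e-10) in CD11c-negative cells, with no overlap with wildtype cells in either NASH group. Mrpl54 read 3.50, 3.42, 3.47, 3.58 and 3.57 on the wildtype arrays, 4.13, 4.13, 4.06, 4.35 and 4.25 on the CD11c-negative and 3.91, 3.90, 3.97, 3.90 and 4.03 on the CD11c-positive arrays, and its rise in the former was 0.68 (SE 0.0519, adjusted p = 1.8e-08). For Mrpl54 all 3 groups were separate, with CD11c-negative NASH cells highest. By contrast Mrpl50 had a rise of 0.13 (SE 0.0341, adjusted p = 0.00294), which was -0.01 and did not pass (adjusted p = 0.766) with quantile normalization. The dimmer kept probe of Mrpl50 rose by 0.39 (SE 0.0367, adjusted p = 2.46e-07 over all probes), and the mean of its probes by 0.26. The size of its rise thus rests on which probe is used. The probes of Mrpl33, Mrps21 and Mrpl52 were the brightest of the members, which says nothing of how their transcripts compare with those of other genes.

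Mrpl3, whose protein reaches from the surface of the large subunit towards the site of peptide bond formation, was the member that fell. It read 4.39, 4.41, 4.44, 4.61 and 4.59 on the wildtype arrays, 4.13, 4.14, 4.08, 4.32 and 4.29 on the CD11c-negative and 3.90, 3.94, 4.07, 4.08 and 4.10 on the CD11c-positive NASH arrays. Both NASH groups lay wholly below the wildtype group, and they overlapped each other. The change was -0.30 (SE 0.0622, adjusted p = 0.000511) in CD11c-negative and -0.47 (SE 0.0622, adjusted p = 6.43e-06) in CD11c-positive cells against wildtype cells. Both falls passed under all 28 alternatives, at -0.61 to -0.27 and at -0.77 to -0.41. Mrpl3 had 1 kept probe on the array, so no other probe checks this fall.

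In the small subunit, 25 of 26 members rose and none fell, with a median change of 0.41, against 49 of 50 and 0.46 in the large subunit. Proteins with bacterial counterparts and mitochondria-specific proteins had like counts, 16 of 16 and 9 of 10 in the small subunit and 28 of 29 and 21 of 21 in the large. The member that did not pass was Mrps34, a mitochondria-specific protein needed for a stable small subunit. Its arrays read 3.59, 3.53, 3.53, 3.60 and 3.64 in wildtype, 3.60, 3.50, 3.55, 3.64 and 3.64 in CD11c-negative and 3.53, 3.54, 3.64, 3.66 and 3.59 in CD11c-positive NASH cells. The 3 groups overlapped, and the changes against wildtype were 0.01 (SE 0.0372, adjusted p = 0.882) and 0.01 (SE 0.0372, adjusted p = 0.768). Under quantile normalization they were -0.28 and -0.27 and passed, so the direction for Mrps34 rests on the scaling. Mrps36, the gene assigned to another complex, rose by 0.37 (SE 0.0295, adjusted p = 3.26e-08).

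**Figure D3:**
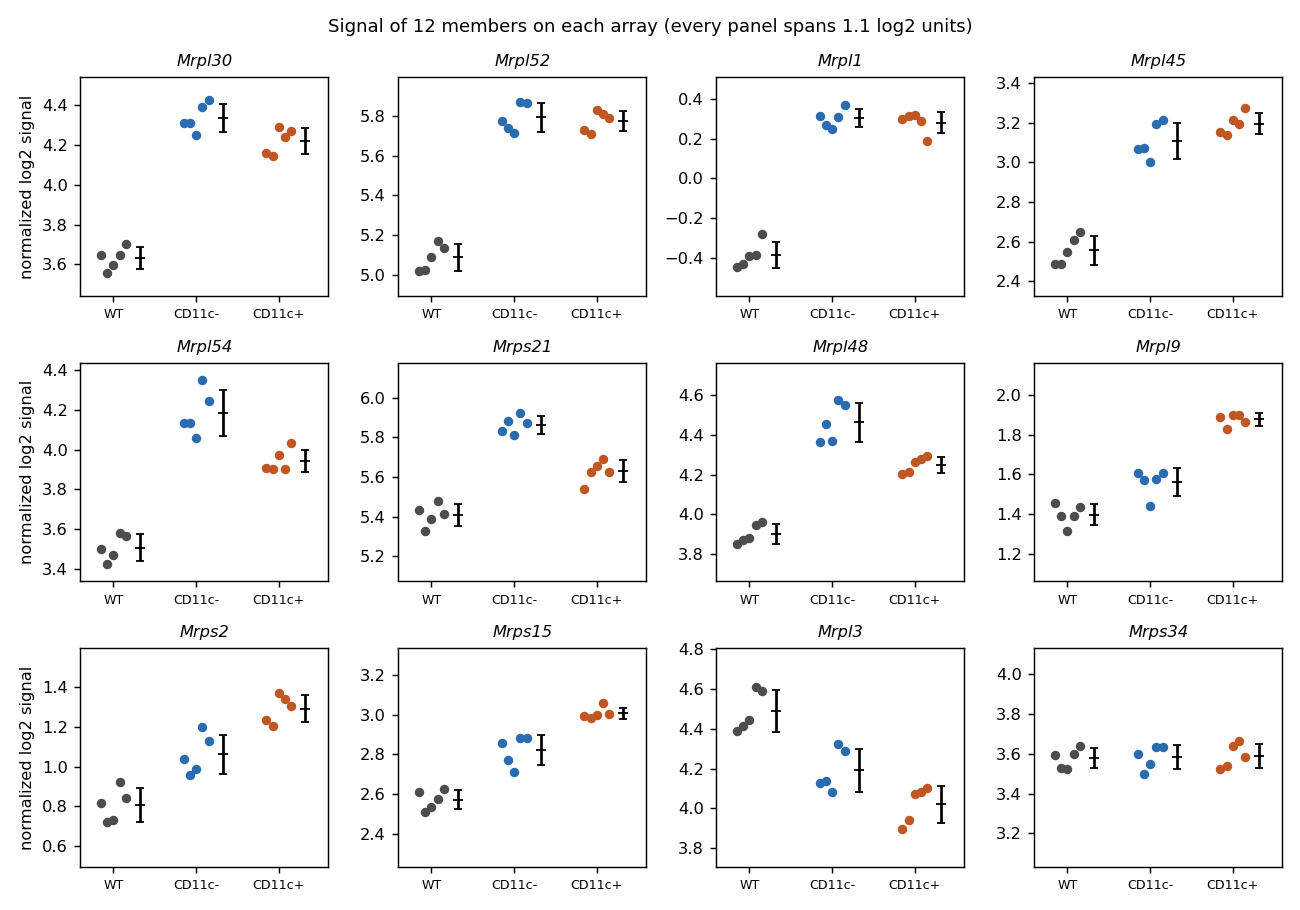
Normalized log2 signal of 12 members on each of the 15 arrays, in wildtype (WT), CD11c-negative NASH (CD11c-) and CD11c-positive NASH (CD11c+) macrophages. Points are arrays, bars give the mean and SD of 5 arrays, and all panels span the same number of log2 units. Mrpl30, Mrpl52, Mrpl1 and Mrpl45 are higher in both NASH groups, Mrpl3 is lower in both, and the arrays of Mrps34 overlap.

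In CD11c-positive NASH against wildtype macrophages, groups that differ in CD11c status as well, 73 of 77 members rose and 1 fell. Of all genes 77.6% passed, 51.3% higher and 26.3% lower, and of the members 94.8% were higher. This comparison shares its wildtype arrays with the one before, so the likeness of their counts is no independent evidence. The median member change was 0.41, against 0.17 for all genes, and the groups did not overlap for 73 members, against 69.3% of all genes. By quantile normalization 53 members were higher and 6 lower, with a median of 0.16, and the share of called genes that were higher went from 66.2% to 53.5%. The 6 were Mrpl3, Mrpl36, Mrpl42, Mrps21, Mrps34 and Mrps6. Within slides 1 and 2 the counts were 72 and 73 higher, with 1 lower in each.

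Mrpl52 and Mrpl1 again had the largest rises here, of 0.69 (SE 0.0415, adjusted p = 1.06e-09) and 0.67 (SE 0.0368, adjusted p = 3.61e-10). Mrpl45, a mitochondria-specific protein near the exit tunnel that attaches the ribosome to the inner membrane, read 2.49, 2.49, 2.55, 2.61 and 2.65 on the wildtype, 3.06, 3.07, 3.00, 3.19 and 3.21 on the CD11c-negative and 3.15, 3.14, 3.21, 3.19 and 3.27 on the CD11c-positive arrays. Its rise against wildtype was 0.64 (SE 0.0465, adjusted p = 8.94e-09), and the NASH groups overlapped each other. Mrpl30 rose by 0.59 (SE 0.0412, adjusted p = 5.51e-09). Beside Mrps34, the members that did not pass were Mrpl49, at 0.12 (SE 0.0622, adjusted p = 0.0889), and Mrps6, at 0.10 (SE 0.0539, adjusted p = 0.0918). The dimmer kept probe of Mrpl49 rose by 0.59 (SE 0.0551, adjusted p = 2.12e-07 over all probes), and the mean of its probes by 0.36. The result for Mrpl49 thus rests on which probe is used. Mrps6, a small subunit protein with a bacterial counterpart, read 3.17, 3.11, 3.15, 3.32 and 3.26 on the wildtype, 3.39, 3.46, 3.33, 3.57 and 3.57 on the CD11c-negative and 3.25, 3.23, 3.31, 3.38 and 3.34 on the CD11c-positive arrays. It rose by 0.26 (SE 0.0539, adjusted p = 0.000436) in CD11c-negative cells, and fell by 0.16 (SE 0.0539, adjusted p = 0.0222) between the NASH groups. With slide as a block the change of Mrps6 against wildtype was 0.08 and passed (adjusted p = 0.0172), and with quantile normalization it was -0.17 and passed as a fall.

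The CD11c-positive and CD11c-negative NASH macrophages came from livers of the same kind of mice, and most members did not pass the test between them. In CD11c-positive against CD11c-negative cells, 8 members rose, 22 fell and 47 did not pass. The background was 53.1% of all genes called, 29.9% higher and 23.2% lower, whereas 39.0% of the members were called, 10.4% higher and 28.6% lower. The median member change was -0.04, against 0.02 for all genes. No called member change reached 1.5-fold, while 642 of the 13391 genes rose and 548 fell by as much. The groups did not overlap for 15 members, against 39.5% of all genes. The changes ran from -0.24 to 0.32.

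These counts moved with the processing. With normexp background correction 14 members rose and 9 fell, and the median was 0.01. With slide as a block 11 rose and 36 fell. Within slide 1 there were 8 higher and 21 lower, and within slide 2 there were 5 higher and 27 lower. The lower count was 12 without CD11c-negative array 4, 12 without CD11c-negative array 5, 13 without CD11c-positive array 1 and 12 without CD11c-positive array 2. The higher count was 5 without CD11c-negative array 3. Under all 28 alternatives 11 members kept their call and direction. They were Mrpl9, Mrps2, Mrps5 and Mrps15, which rose, and Mrpl13, Mrpl48, Mrpl54, Mrpl58, Mrps10, Mrps18c and Mrps21, which fell. This list was chosen after its values were seen. No alternative used the dimmer probe of Mrps2 alone, which did not pass.

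**Figure D4:**
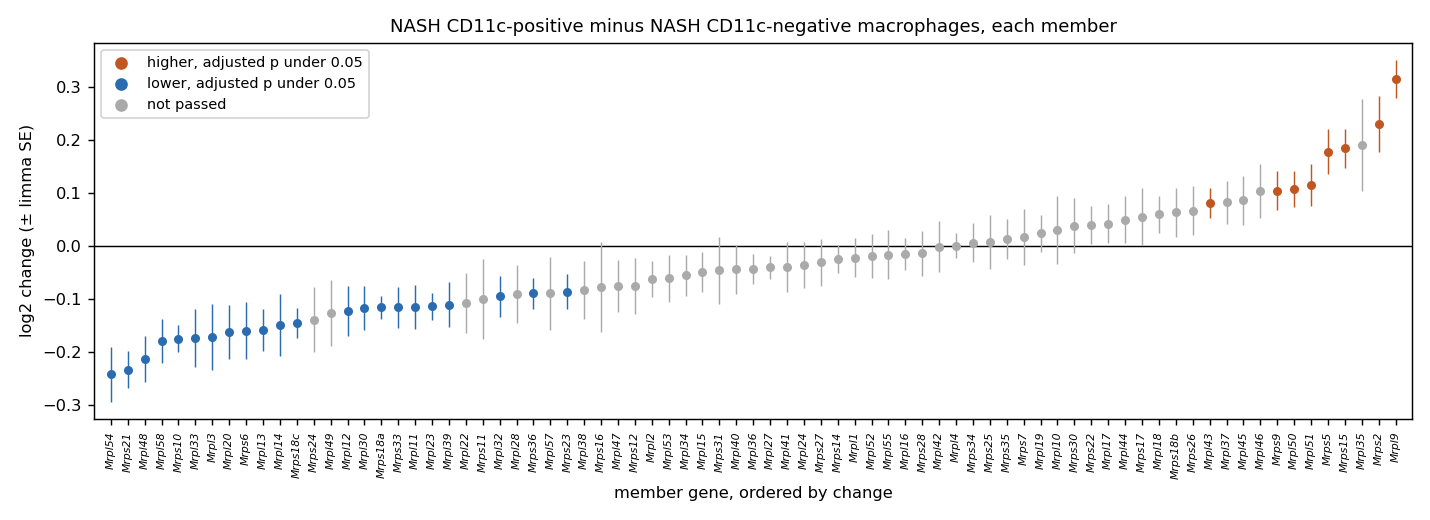
Log2 change of each of the 77 tested members between CD11c-positive and CD11c-negative NASH macrophages, with its limma standard error. Colours mark the 8 that rose, the 22 that fell and the 47 that did not pass at an adjusted p under 0.05. The changes run from -0.24 for Mrpl54 to 0.32 for Mrpl9. With normexp background correction the counts are 14 higher and 9 lower.

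The members that rose with CD11c included Mrpl9, Mrps2, Mrps15 and Mrps5. Mrpl9, a large subunit protein with a bacterial counterpart, read 1.46, 1.39, 1.32, 1.39 and 1.43 on the wildtype arrays, 1.61, 1.57, 1.44, 1.57 and 1.61 on the CD11c-negative and 1.89, 1.83, 1.90, 1.90 and 1.86 on the CD11c-positive arrays. The CD11c-positive arrays lay above all others, while the wildtype and CD11c-negative groups overlapped. The rise was 0.32 (SE 0.0356, adjusted p = 3.94e-06). Mrps2, a bacterial-type protein of the small subunit, read 0.82, 0.72, 0.73, 0.92 and 0.84 on the wildtype, 1.04, 0.96, 0.99, 1.20 and 1.13 on the CD11c-negative and 1.24, 1.21, 1.37, 1.34 and 1.31 on the CD11c-positive arrays. All 3 groups were separate, and the rise with CD11c was 0.23 (SE 0.0529, adjusted p = 0.00206). The dimmer kept probe of Mrps2 had a change of 0.115 (SE 0.0605) that did not pass (adjusted p = 0.14 over all probes). The mean of its probes rose by 0.173. Mrps15, which binds the small subunit RNA in bacteria, read 2.61, 2.51, 2.54, 2.58 and 2.63 on the wildtype, 2.86, 2.77, 2.71, 2.88 and 2.88 on the CD11c-negative and 2.99, 2.98, 3.00, 3.06 and 3.00 on the CD11c-positive arrays. It too had 3 separate groups, with a rise of 0.18 (SE 0.0364, adjusted p = 0.000668). Mrps5 rose by 0.18 (SE 0.0422, adjusted p = 0.00261), and the groups did not overlap.

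Of the members that fell with CD11c, Mrpl54 had the largest change, -0.24 (SE 0.0519, adjusted p = 0.00126), and its arrays are given above. Mrps21, whose bacterial counterpart sits on the platform of the small subunit, read 5.43, 5.33, 5.39, 5.48 and 5.41 on the wildtype, 5.83, 5.88, 5.81, 5.92 and 5.87 on the CD11c-negative and 5.54, 5.63, 5.66, 5.69 and 5.63 on the CD11c-positive arrays. The 3 groups were separate, with CD11c-positive cells in between, and the fall between the NASH groups was -0.23 (SE 0.0349, adjusted p = 5.84e-05). Mrpl48 read 3.85, 3.87, 3.88, 3.95 and 3.96 on the wildtype, 4.36, 4.46, 4.37, 4.58 and 4.55 on the CD11c-negative and 4.20, 4.21, 4.26, 4.28 and 4.29 on the CD11c-positive arrays. Its 3 groups were separate in the same order, with a fall of -0.21 (SE 0.0435, adjusted p = 0.000868). Mrpl58, a large subunit protein with peptidyl-tRNA hydrolase activity that frees stalled chains, read 3.84, 3.79, 3.89, 3.92 and 3.95 on the wildtype, 4.32, 4.33, 4.29, 4.45 and 4.44 on the CD11c-negative and 4.14, 4.13, 4.17, 4.22 and 4.27 on the CD11c-positive arrays. It had the same order without overlap and a fall of -0.18 (SE 0.042, adjusted p = 0.00239).

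Mrpl42 and Mrpl4 had the smallest changes between the NASH groups. Mrpl4 read 5.30, 5.28, 5.22, 5.27 and 5.31 on the CD11c-negative and 5.29, 5.27, 5.30, 5.28 and 5.24 on the CD11c-positive arrays, which overlapped, against 4.99, 4.95, 4.95, 4.96 and 4.96 on the wildtype arrays. The difference between the NASH groups had an SE of 0.0233 and did not pass (adjusted p = 0.993). Mrpl42 read 2.85, 2.73, 2.68, 2.94 and 2.85 on the CD11c-negative and 2.77, 2.76, 2.83, 2.82 and 2.87 on the CD11c-positive arrays, with the wildtype arrays at 2.67, 2.55, 2.63, 2.74 and 2.68. Its NASH groups overlapped (adjusted p = 0.984).

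Across the 3 comparisons, the commonest pattern was higher in both NASH groups with no called difference between them, in 45 members. A further 20 were higher in both NASH groups and lower in CD11c-positive than in CD11c-negative cells. With slide as a block these counts were 29 and 35, so which pattern is commoner depends on the block. All 8 members that rose with CD11c were also higher in both NASH groups than in wildtype cells, namely Mrpl9, Mrpl43, Mrpl50, Mrpl51, Mrps2, Mrps5, Mrps9 and Mrps15. With quantile normalization Mrpl51 was called lower in CD11c-negative than in wildtype cells, at -0.08, and Mrpl9, Mrpl50 and Mrps15 did not pass there. The dimmer kept probe of Mrpl50 did not rise with CD11c, at -0.05 (adjusted p = 0.332 over all probes). Those of Mrps2 and Mrpl43 did not pass, at 0.115 and 0.111 (adjusted p = 0.14 and 0.0725). By group means 49 members were highest in CD11c-negative NASH cells, 27 in CD11c-positive NASH cells and 1, Mrpl3, in wildtype cells. Of the 22 that fell with CD11c, 15 were large subunit and 6 small subunit members, and the last was Mrps36.

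For 21 members a further probe passed the filter, and it was compared with the brighter probe that stood for the gene. In CD11c-negative NASH against wildtype cells the probes of 2 members, Mrpl41 and Mrps25, differed in direction, and likewise in CD11c-positive against wildtype cells. The probes of 3 members differed in call in each of these comparisons. The brighter probe of Mrpl41, which encodes a mitochondria-specific large subunit protein, rose by 0.52 (adjusted p = 2.21e-07 over all probes). Its dimmer probe fell by 0.30 (SE 0.0601, adjusted p = 0.000419), and by 0.44 (SE 0.0601, adjusted p = 1.28e-05) in CD11c-positive against wildtype cells. With the mean of the probes the change of Mrpl41 in CD11c-positive cells was 0.02 and did not pass (adjusted p = 0.449), so its rise rests on which probe is used. The dimmer probe of Mrps25 had changes of -0.22 (SE 0.282, adjusted p = 0.495) and -0.43 (SE 0.282, adjusted p = 0.186). In CD11c-positive against CD11c-negative cells the probes of 7 members differed in direction and those of 9 in call.

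**Figure D5:**
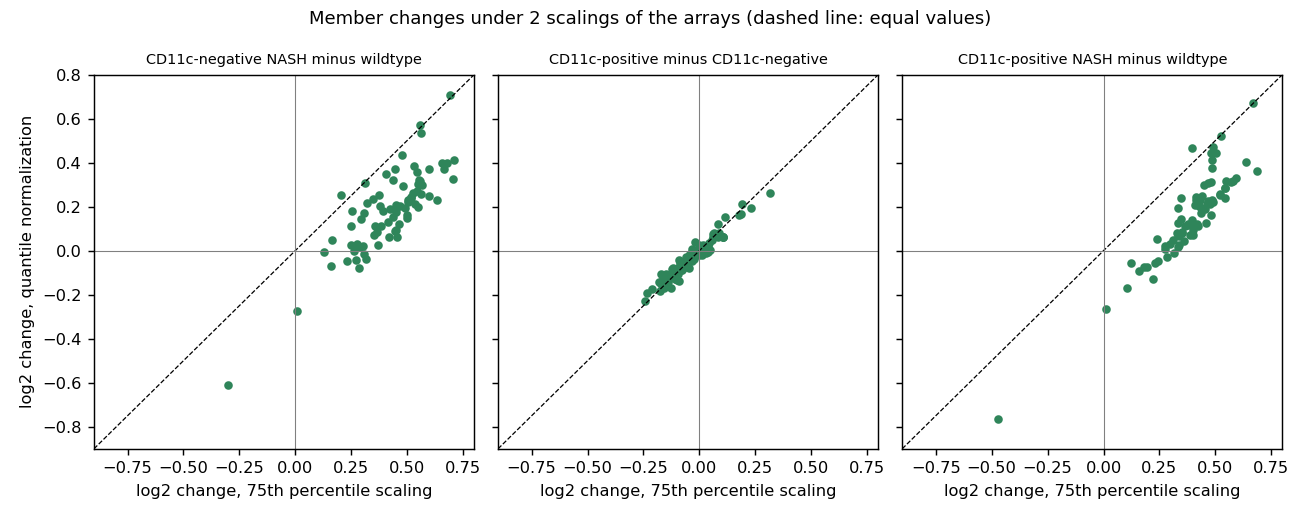
Log2 change of each tested member with the arrays scaled to their 75th percentile (horizontal axis) and with quantile normalization (vertical axis), in the 3 comparisons. Each point is 1 of 77 members and the dashed line marks equal values. Against wildtype most points lie below the line, and medians of 0.45 and 0.41 become 0.20 and 0.16. In the middle panel the median is -0.04 under both.

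Ribosomal proteins that carry other symbols were looked at next. Of 5, Dap3, Chchd1, Aurkaip1 and Gadd45gip1 rose in both NASH groups, with Gadd45gip1, a large subunit protein first known as a growth arrest partner, at 0.65 (SE 0.0538) and 0.47 (SE 0.0538). With quantile normalization these 4 were also called higher, and Gadd45gip1 was at 0.39 and 0.21. Ptcd3, which is associated with the small subunit, had changes of -0.06 (adjusted p = 0.152) and 0.03 (adjusted p = 0.452), and was called lower in both with quantile normalization, at -0.30 and -0.22. The 80% higher in each comparison with wildtype stands beside 48.3% and 51.3% of all genes. With CD11c 3 of the 5 fell and none rose, where 23.2% of all genes were lower and 29.9% higher. Gadd45gip1 had the largest fall, 0.18 (SE 0.0538, adjusted p = 0.0113). By normexp and by quantile normalization Ptcd3 was called higher with CD11c, at 0.13 and 0.08, and 3 and 2 of the list were lower.

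Factors that assemble the ribosome or mature its RNA were the next list. Of 27 tested, 17 rose and 1 fell in CD11c-negative NASH against wildtype cells, with a median change of 0.19 beside the 0.13 of all genes. In CD11c-positive against wildtype cells 17 rose and 2 fell, with a median of 0.14 beside 0.17. The 63.0% higher in each comparison stands beside 48.3% and 51.3% of all genes. Between the NASH groups 4 rose and 4 fell, or 14.8% each, beside 29.9% and 23.2% of all genes. With quantile normalization the counts against wildtype were 13 higher and 6 lower, then 12 and 8. Ddx28, a DEAD-box helicase of large subunit assembly, read from -0.02 to 0.23 on the wildtype arrays, 1.25 to 1.55 on the CD11c-negative and 1.23 to 1.45 on the CD11c-positive NASH arrays. It rose by 1.28 (SE 0.0719, adjusted p = 5.26e-10) and 1.27 (SE 0.0719, adjusted p = 5.15e-10), more than any member. Mettl17, a factor of small subunit assembly, fell by 0.34 (SE 0.0465, adjusted p = 1.02e-05) in CD11c-negative cells, and was 0.28 higher (SE 0.0465, adjusted p = 0.000137) in CD11c-positive than in CD11c-negative cells. Gtpbp10, a GTPase of large subunit assembly, fell by 0.20 (SE 0.0592, adjusted p = 0.00623) in CD11c-positive against wildtype cells. Lyrm2, counted in this list though its role in the ribosome was not checked, fell by 0.18 (SE 0.0294, adjusted p = 0.000114) between the NASH groups.

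Translation factors were divided. Of 16 tested, 10 rose and 4 fell in CD11c-negative against wildtype cells, and 12 rose and 3 fell in CD11c-positive against wildtype cells. The shares higher were 62.5% and 75%, beside 48.3% and 51.3% of all genes, and the shares lower were 25% and 18.8%, beside 28.5% and 26.3%. Tsfm, the exchange factor of the elongation factor Tufm, had the largest rises, 0.57 (SE 0.0772, adjusted p = 8.12e-06) and 0.70 (SE 0.0772, adjusted p = 8.7e-07). Guf1, a GTPase related to bacterial LepA, fell by 0.53 (SE 0.124, adjusted p = 0.00138) in CD11c-negative cells, and by 0.27 with normexp. Mtif2, which brings the initiator transfer RNA to the ribosome, had the largest fall in CD11c-positive cells, by 0.40 (SE 0.0292, adjusted p = 8.76e-09), and by 0.78 with quantile normalization. In CD11c-positive against CD11c-negative cells 4 rose and 2 fell, or 25% and 12.5%, beside 29.9% and 23.2% of all genes. Lrpprc and Slirp form a complex that keeps mitochondrial messages stable, and they moved apart: Lrpprc rose by 0.41 (SE 0.0272, adjusted p = 1.52e-08) and Slirp fell by 0.14 (SE 0.0312, adjusted p = 0.00201). With normexp the change of Slirp was -0.08 and did not pass, and of the list 6 were higher and none lower.

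Mitochondrial aminoacyl-tRNA synthetases and related enzymes, which charge the transfer RNAs, did not rise as a list in CD11c-negative NASH cells. Of 19 tested, 5 were higher and 6 lower than in wildtype cells, with a median of 0.08, below the 0.13 of all genes. These shares, 26.3% and 31.6%, stand beside 48.3% and 28.5% of all genes. From CD11c-negative to CD11c-positive cells 8 were higher and none lower, while 11 did not pass. The 42.1% higher stands beside 29.9% of all genes, of which 23.2% were lower. Against wildtype 9 were higher and 3 lower in CD11c-positive cells, or 47.4% and 15.8%, beside 51.3% and 26.3% of all genes. Ears2, for glutamate, rose by 0.61 (SE 0.0341, adjusted p = 5.6e-10) and by 0.55 in the respective NASH groups. Wars2, for tryptophan, stood clear of background on 4 of the 5 arrays of CD11c-negative NASH cells and fell by 0.91 (SE 0.125, adjusted p = 9.62e-06), with a fall of 0.54 (SE 0.125, adjusted p = 0.00115) in CD11c-positive cells. With normexp background correction the fall in CD11c-negative cells was 0.41. Between the NASH groups Wars2 had a change of 0.37 (SE 0.125, adjusted p = 0.0208), the largest called in the list, and of -0.03 with normexp (adjusted p = 0.723).

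Genes that transcribe and maintain mitochondrial DNA had 6 higher and 3 lower of 12 in CD11c-negative, and 5 higher and 2 lower in CD11c-positive NASH against wildtype cells. Among all genes 48.3% were higher and 28.5% lower in the first comparison, beside which 6 and 3 of 12 is a like share. In the second the list had 41.7% higher and 16.7% lower, beside 51.3% and 26.3%. Polrmt, the mitochondrial RNA polymerase, did not pass in either comparison, at 0.07 (adjusted p = 0.136) and 0.07 (adjusted p = 0.151). Tefm, its elongation factor, rose by 0.56 (SE 0.0543, adjusted p = 2.32e-07) in CD11c-negative cells, and Twnk, the DNA helicase, rose by 0.55 (SE 0.0618, adjusted p = 1.19e-06) in CD11c-positive cells, and by 0.30 with normexp. Mterf2, of the transcription termination factor family, was not well above background on any CD11c-negative array. Without normexp it was at least 2.37-fold lower there than in wildtype cells (measured means -5.02 and -2.81, adjusted p = 1.53e-05). With normexp the change was -0.55 (adjusted p = 1.03e-05), a smaller fall than this bound of 1.24 log2 units. The size of this fall thus rests on the background correction. In CD11c-positive cells Mterf2 was well above background on 2 of 5 arrays. Its change there was -1.19 (SE 0.316, adjusted p = 0.00315), which was -0.59 with normexp. Between the NASH groups Mgme1, a nuclease of mitochondrial DNA, fell by 0.25 (SE 0.0723, adjusted p = 0.0102), while Tfam had a change of -0.10 (SE 0.0255, adjusted p = 0.00592) that did not pass with normexp, at -0.03 (adjusted p = 0.554). Mterf2 was the 1 gene of the list called higher, and the floor of the CD11c-negative arrays allows only the statement that it was at least 1.04-fold higher. With normexp its change was -0.04 (adjusted p = 0.722). Polrmt, Tfam, Nrf1 and Gabpa are named for their known roles, outside the rule for named genes.

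Nuclear regulators of mitochondrial genes did not move as one. Of 11 tested, 4 were higher and 3 lower in CD11c-negative, and 5 higher and 2 lower in CD11c-positive NASH against wildtype cells. The shares higher, 36.4% and 45.5%, lie below the 48.3% and 51.3% of all genes. The shares lower, 27.3% and 18.2%, stand beside 28.5% and 26.3%. With quantile normalization 3 were higher and 7 lower, then 3 and 5. Nrf1 and Gabpa, whose motifs were searched above, did not pass against wildtype, with changes of -0.03 and 0.07 in CD11c-negative cells (adjusted p = 0.458 and 0.222). By quantile normalization Nrf1 fell by 0.17 (adjusted p = 0.00167). Ppargc1b, a coactivator of mitochondrial biogenesis, fell by 1.03 (SE 0.0816, adjusted p = 2.78e-08) and by 0.84 (SE 0.0816, adjusted p = 2.4e-07). With normexp the fall in CD11c-negative cells was 0.58. Pprc1, of the same coactivator family, rose by 0.29 (SE 0.072, adjusted p = 0.00215) in CD11c-negative cells, and by 0.19 with normexp. Yy1 rose by 0.41 (SE 0.0379, adjusted p = 1.2e-07) in CD11c-positive cells, and by 0.22 with quantile normalization. With CD11c 4 were higher and none lower, and Hcfc1 had the largest rise, 0.33 (SE 0.0404, adjusted p = 1e-05). The 36.4% higher stands beside 29.9% of all genes, of which 23.2% were lower.

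The neighbours that share a start region with members moved in both directions, as did all genes. Of 21 tested neighbours, 10 were higher, 6 lower and 5 not passed in CD11c-negative against wildtype cells, with a median of 0.12. In CD11c-positive against wildtype cells 14 were higher and 4 lower, with a median of 0.17, and between the NASH groups 10 were higher and 3 lower, with a median of 0.06. These medians lie close to those of all genes, 0.13, 0.17 and 0.02. Among all genes 48.3% were higher and 28.5% lower in the first comparison, beside which 10 and 6 of 21 is a like share. In the second 51.3% of all genes were higher and 26.3% lower, beside 14 and 4 of 21 neighbours. Between the NASH groups 29.9% and 23.2% were, beside 10 and 3 of 21. In these last comparisons the neighbours thus had a larger share higher and a smaller share lower than all genes, which was not tested. Mrpl30 starts 66 bases from Mitd1, which had a change of -0.06 (SE 0.0465, adjusted p = 0.274) beside the 0.71 of Mrpl30. Mrpl14 starts 131 bases from Tmem63b, which fell by 0.38 (SE 0.0374, adjusted p = 3.41e-07), or by 0.58 with quantile normalization, while Mrpl14 rose by 0.55. Other pairs rose together in this comparison. Mrpl43 and Twnk, 116 bases apart, rose by 0.46 and 0.50, and Mrpl46 and Mrps11 by 0.35 and 0.45. Mrpl49 starts 192 bases from Fau, which encodes a ribosomal protein of the cytosol, and both rose, by 0.25 and 0.54, with Fau at 0.29 by quantile normalization. The neighbours named here were chosen after their values were seen.

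The groups most like the members were the cytosolic ribosomal proteins and the nuclear subunits of oxidative phosphorylation. In CD11c-negative NASH cells 79 of 80 cytosolic ribosomal genes and 77 of 81 oxidative phosphorylation genes were higher, with medians of 0.56 and 0.46 beside the 0.45 of the members. In CD11c-positive cells 75 and 76 were higher, with medians of 0.36 and 0.37 beside 0.41. Of all genes 48.3% and 51.3% were higher in the respective comparisons. The counts of both lists depend on the scaling. With quantile normalization 58 cytosolic ribosomal genes were higher and 1 lower in each comparison with wildtype, with medians of 0.14 and 0.14. By the same scaling 42 oxidative phosphorylation genes were higher and 16 lower in CD11c-negative cells, with a median of 0.08, and 39 and 19 in CD11c-positive cells, with a median of 0.05. In the comparison of the NASH groups the counts were apart: 71 of 80 cytosolic ribosomal genes fell, with a median of -0.20, and 40 of 81 oxidative phosphorylation genes, with a median of -0.10, against 22 of 77 members and -0.04. Of all genes 23.2% fell there. With quantile normalization 14 cytosolic ribosomal genes, 31 oxidative phosphorylation genes and 25 members fell. The difference between the lists was not tested, and for the cytosolic ribosomal genes it rests on the scaling.

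Markers of other cells and of dividing cells moved with the same groups. The summed level of 7 neutrophil markers was 8.65 to 8.72 on the wildtype arrays, 10.58 to 10.71 on the CD11c-negative and 9.29 to 9.37 on the CD11c-positive NASH arrays, and 6 of the 7 rose in both against wildtype. The summed level of 8 proliferation genes was 5.90 to 5.98, 6.43 to 6.497 and 6.73 to 6.797 in the same order, with 7 and 8 of 8 higher against wildtype. The summed level of 6 sinusoidal endothelial markers was 8.06 to 8.18, 7.36 to 7.43 and 6.73 to 6.78, and that of 5 hepatocyte markers was 6.36 to 6.498, 5.18 to 5.34 and 4.74 to 4.89. Of these lists 5 of 6 endothelial and 3 of 5 hepatocyte markers were lower in CD11c-negative against wildtype cells, and 5 of 6 and 5 of 5 in CD11c-positive against wildtype cells. Of 8 markers of conventional dendritic cells, 7 were lower in CD11c-negative and 6 higher in CD11c-positive cells against wildtype. Of 7 tested T cell markers 5 were lower in each NASH group than in wildtype cells, and of 5 tested B cell markers 4 and 5 were lower. Beside these counts, 48.3% of all genes were higher and 28.5% lower in CD11c-negative against wildtype cells. In CD11c-positive against wildtype cells the shares were 51.3% and 26.3%. The part of these cell types, and of division, in the change of the members was not tested.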

How the data were processed

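Agilent one-colour arrays of 15 RNA samples, 5 in each of 3 groups, lay on 2 slides. Spot intensity in the deposited scanner files had been background-subtracted and detrended, per the file headers, by Agilent Feature Extraction 10.7.3.1 (per the submitters' processing notes). The deposited table holds log2 values that the authors had scaled to the 75th percentile and centred on wildtype arrays, as a comparison with the scanner values showed (median absolute difference 0.00146). It served as an alternative.

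Of 62976 spots 3671 controls and 113 to 190 outlier spots per array were left out. None was saturated. Each array's 75th percentile over probes was subtracted from the log2 processed signals. Probes well above background on at least 4 of 5 arrays of a group were kept (28176 of 55681), named through RefSeq accessions, and the brightest stood for its gene. The 15 arrays were fitted together in limma 3.58.1 under R 4.3.3 (lmFit, eBayes), 2-sided, with Benjamini-Hochberg adjustment over 13391 genes and a threshold of 0.05. A gene not well above background on any array of a group is given as a bound, against the lowest signal well above background on each array or its own value where higher. The number of arrays limits the precision. The test was checked on simulated data.

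Members named are the 4 largest called rises and falls and the 2 smallest changes per comparison, the 3 brightest and 2 dimmest probes, members without signal, and those with opposed probes. Of the other lists the largest called rise and fall are named. Exceptions are stated. Members and lists were chosen with earlier results of these data known. The alternatives were normexp, quantile normalization, other filters, slide, the replicate block, 2 groups alone, probe means, another prior, values from the deposited table, and omission of each array.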

Additional observations from a re-analysis of the deposited data

Results flagged for a closer look

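The 21 named members and the median over members were screened in each of the 3 groups for an array far from the other 4, by the gap to its nearest neighbour over the range of the group, with 66 groups of values screened. Such a screen marks about 1 group in 20 by chance, and 3 were marked. Mrpl1 read 0.19 on CD11c-positive array 5, below the 0.29 to 0.32 of the others. Mrpl9 read 1.44 on CD11c-negative array 3, below the 1.57 to 1.61 of the others. Mrps15 read 3.06 on CD11c-positive array 4, above the 2.98 to 3.00 of the others. Leaving out any array kept the rise of Mrpl1 in CD11c-positive against wildtype cells at 0.65 to 0.70, that of Mrpl9 between the NASH groups at 0.29 to 0.33 and that of Mrps15 at 0.16 to 0.20.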

How the results depend on the processing

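Against wildtype, leaving out each array in turn gave 75 to 76 called members in CD11c-negative and 74 to 75 in CD11c-positive NASH cells, with medians of 0.42 to 0.47 and 0.39 to 0.43. Over the 28 alternatives 55 and 52 of 77 members kept call and direction. Quantile normalization moved the medians to 0.202 and 0.161 and the members called lower to 3 and 6. It gave Mrpl50 -0.007 and Mrps34 -0.275 in CD11c-negative cells, and Mrps34 -0.266 and Mrps6 -0.168 in CD11c-positive cells. The cause was not tested.

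Between the NASH groups, normexp gave 14 higher and 9 lower members and a median of 0.008, and Mrpl42 at 0.065. Without a filter on dim probes, which enlarged the adjustment to 20145 genes, 19 members were called, 5 higher and 14 lower. With slide as a block 47 were called and 36 lower, and within slide 2 there were 5 higher. Leaving out each array gave 20 to 31 called, 5 to 9 higher, 12 to 23 lower and medians of -0.057 to -0.026.

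Changes near 0 turned sign. Mrpl4 between the NASH groups was -0.001 with slide as a block, -0.018 within slide 2, -0.014 with the replicate block and slide, -0.007 with the mean of probes, and -0.015 to 0.010 without an array. Mrpl42 was 0.011 within slide 1 and -0.033 to 0.032 without an array. Mrps34 was -0.007 to 0.027 without an array in CD11c-negative cells. In CD11c-positive cells it was -0.004 with slide as a block, -0.017 within slide 1, -0.010 with the replicate block and slide, and -0.006 to 0.029 without an array.

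Same-numbered arrays of different groups did not all deviate together. Their correlations were 0.058 to 0.373 (median 0.236) for 13 pairs on the same slide, of which 11 were over 0.1. For 24 same-slide pairs with different numbers they were 0.008 to 0.327 (median 0.176), with 19 over 0.1. On different slides, 2 same-numbered pairs had -0.198 and -0.171, and 36 pairs with different numbers had -0.352 to -0.004. The sign mostly followed the slide, so these values cannot settle whether the numbers pair the samples. No pairing was used in the main fit. With the replicate block 76 members were called in each comparison with wildtype, and 38 between the NASH groups, 12 higher and 26 lower. With slide added the last counts were 9 and 33.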
